A study of Homo sapiens with 4 samples.

Results

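The genes described here are the machinery of DNA replication and the enzymes that supply its nucleotides. They were chosen by name, as 49 gene symbols of the replicative helicase, the origin complex, the polymerases, the clamp and its loader, replication protein A, the flap nuclease and ligase, nucleotide enzymes and fork protection factors. All 49 were found among the 60662 genes of the deposited count table, and 48 had enough counts to be tested. They were compared between MATR3 knockout (KO) and wild-type (WT) HAP1 cells, which are human, mostly haploid and descend from KBM-7 chronic myeloid leukaemia cells. There were 2 KO libraries, 1 each from the purchased knockout clones 1 and 5, and 2 WT libraries from the purchased control, WT clone 4, called WT A and WT B. Each KO clone is 1 library, so clone and genotype effects are separated only as far as the clones resemble each other. Total RNA was copied into PCR-amplified cDNA and sequenced as long reads on a MinION from Oxford Nanopore. MATR3 encodes matrin 3, a nuclear protein that binds RNA and DNA, and the series asks about its loss in relation to cGAS-STING, a sensor system for cytosolic DNA.

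Replication starts at origins that the origin recognition complex marks in G1, where CDC6 and CDT1 load the MCM2-7 helicase onto DNA and geminin later prevents a second loading. In S phase CDC45 and the GINS complex join MCM2-7 to form the active helicase, polymerase alpha-primase lays the primers, and polymerases epsilon and delta extend them with the sliding clamp PCNA. Many of these genes are transcribed around the start of S phase under control of the E2F family, so their mRNA levels also follow how many cells of a culture are cycling.

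The promoters of these genes often held an E2F-type octamer, a feature that played no part in their selection. Promoters were taken from RefSeq (GRCh38.p14) as 250 bases before and 50 bases after each annotated start, and 43 of the 49 genes had an entry. The letters searched were TTTCCCGC, TTTCGCGC, TTTGCCGC and TTTGGCGC on both strands, with overlapping matches allowed. Some genes have several entries, and a gene was counted when any of them held a match. That was so for 21 of 43 genes (48.8%), against 7.23% of the 7743 tested genes that had an entry. Counted by entry and not by gene, 3.31% of all 35116 promoters held a match. The shorter CCAAT box was present for 60.5% of the 43 genes and 43.5% of the tested genes, and TTTGAA, the core of the cell cycle homology region, for 6.98% and 13.2%. A match in such a window is a description of its letters and not evidence of binding. Windows of 40 bases upstream of an annotated start are shown for 5 genes whose values are given below. Every match to an octamer or its reverse complement is in capitals, 5′ to 3′ on the strand of the gene. Each window comes from an entry that held a match, and GMNN, DUT, PCNA and MCM7 have further entries without one. The DUT window holds 2 separate matches and the MCM6 window 2 that overlap, while the others hold 1 each. They are GMNN at chr6:24775317-24775356 (plus strand), DUT at chr15:48332154-48332193 (plus), PCNA at chr20:5126658-5126697 (minus), MCM7 at chr7:100101561-100101600 (minus) and MCM6 at chr2:135876506-135876545 (minus).
GMNN: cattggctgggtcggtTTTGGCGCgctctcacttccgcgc
DUT: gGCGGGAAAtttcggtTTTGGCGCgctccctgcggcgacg
PCNA: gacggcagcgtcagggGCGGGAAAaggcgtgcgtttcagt
MCM7: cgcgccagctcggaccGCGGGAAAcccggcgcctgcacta
MCM6: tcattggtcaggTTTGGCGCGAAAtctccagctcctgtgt

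The libraries held 3121759 counts in KO clone 1, 4024026 in KO clone 5, 3509906 in WT A and 5303199 in WT B, of which the 49 genes took 0.465%, 0.477%, 0.511% and 0.493%. The MATR3 counts do not check the knockout labels: of the gene models for MATR3, the one with most counts had 187 and 204 in KO clones 1 and 5, against 171 and 304 in WT A and B, and gene totals would not show a short insertion or deletion. The KO columns carry another date tag than the WT columns, and the WT column names carry different handling tags, which leaves genotype and date tag confounded (they cannot be told apart). No label says that the WT libraries came from separate cultures, so part of the spread among the 4 libraries may be technical. The edgeR fit draws the variance of each gene toward the trend of all genes. Its p-values and intervals thus do not rest on the spread of that gene alone.

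No gene of the set passed the test between KO and WT. At an edgeR quasi-likelihood adjusted p under 0.05 (Benjamini-Hochberg over all 10505 genes tested) 0 of the 48 tested genes were higher and 0 were lower in KO. Among all genes tested 1.58% were called higher and 0.609% lower, and 2.19% in either direction. DESeq2 also called 0, of the 45 genes it gave an adjusted p (2.85% of all its genes were called), and limma-voom 0 of 48 (against 1.57%). Of the 48, 2 had an unadjusted edgeR p under 0.05, POLD2 and RFC2, both lower in KO, against 16.4% of all genes (10.7% higher and 5.66% lower). The median log2 fold change of the 48 genes was -0.05, against 0.00 for all genes, and 29 of them (60.4%) lay below 0, against 49.7% of all genes. Both KO libraries lay above both WT libraries for 9 of the 48 genes (18.8%, against 25% of all genes), and below both for 10 (20.8%, against 22.8%). In bulk RNA, fewer cycling cells and less mRNA per cell cannot be told apart.

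The absence of a call does not show that levels were equal, and the intervals say how large a difference the data allow. The fitted log2 fold changes ran from -0.68 for POLD2 to 0.80 for GINS3, and 40 of the 48 (83.3%) were smaller than 0.5 in size, against 66.0% of all genes. The 95% interval lay wholly within 2-fold in either direction for 33 of the 48 genes (68.8%, against 38.8% of all genes) and within 1.5-fold for 2, with a median half-width of 0.63 on the log2 scale. A 2-fold difference thus lay outside the interval for those 33 genes, while for all but 2 of the 48 the interval reached past 1.5-fold on at least 1 side. These intervals borrow variance from other genes and treat the 2 KO clones as 1 group. Interval width depends on counts, and these genes had more counts than most. A mean of at least 50 counts was reached by 43 of them (48 tested) and by 5557 of all genes (10505 tested). The shares of the set and of all genes were thus not compared at equal counts.

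**Figure D1:**
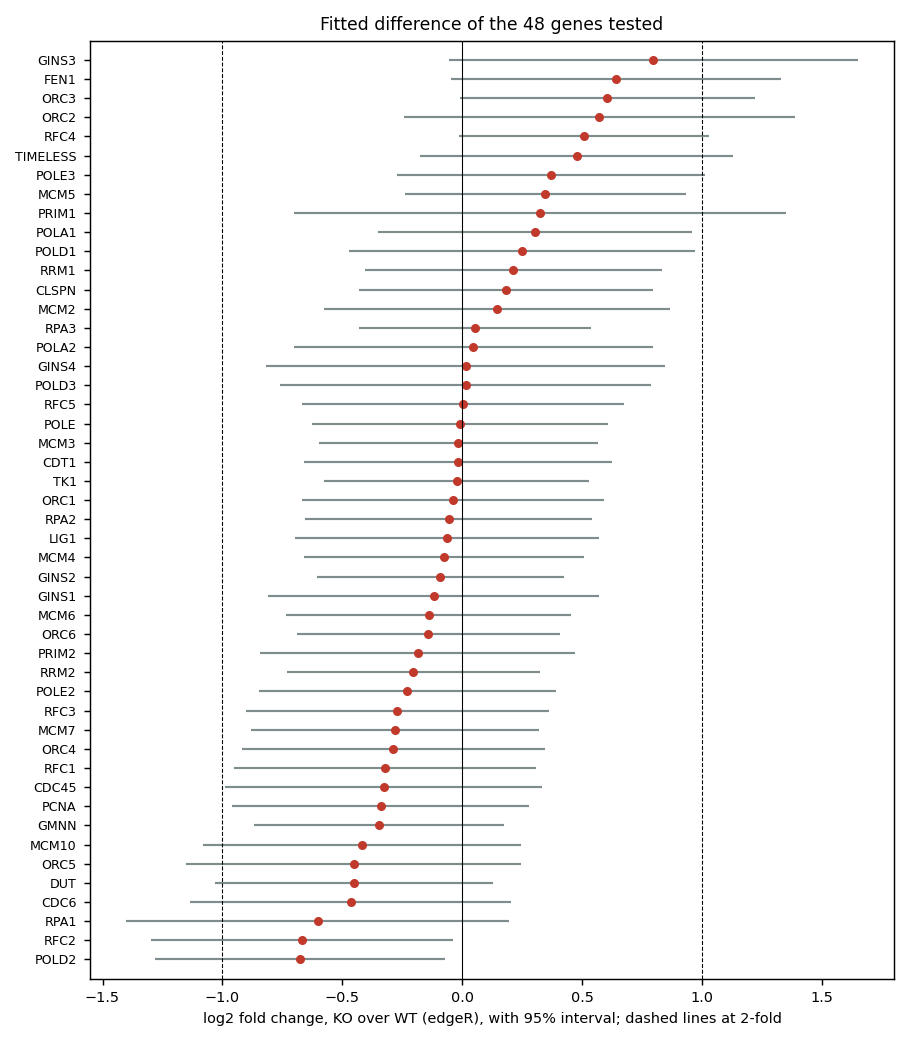
Fitted log2 fold change of KO over WT for the 48 tested genes (points) with the 95% interval of the edgeR fit (lines), ordered by size, with dashed lines at 2-fold. The values run from -0.68 for POLD2 to 0.80 for GINS3, and only the intervals of POLD2 and RFC2 leave out 0, before adjustment for 10505 genes.

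The 6 ORC genes summed to 332 and 342 CPM (counts scaled to an equal library size) in KO clones 1 and 5, against 364 and 329 CPM in WT A and B, which overlapped. Among them, ORC3, a core subunit, had the lowest p. It had 169 and 244 counts in KO clones 1 and 5, against 126 and 205 in WT A and B, or 51.5 and 62.7 CPM in KO, against 37.2 and 37.9 CPM in WT. Both KO libraries were above both WT libraries, and the log2 fold change was 0.60 (SE 0.29; 95% interval -0.01 to 1.22; edgeR adjusted p = 0.315). ORC2 had 31.4 and 17.0 CPM in KO clones 1 and 5, against 10.6 and 21.1 CPM in WT A and B, so the groups overlapped and the WT libraries alone were 0.99 apart on the log2 scale. ORC6, the smallest subunit, had 158 and 165 CPM in KO clones 1 and 5, against 195 and 161 CPM in WT A and B, which is -0.14 on the log2 scale (SE 0.26). ORC1, ORC4 and ORC5 had log2 fold changes of -0.04, -0.29 and -0.45, none past the test.

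The 3 licensing factors all had fitted values below 0, with a median of -0.35. They summed to 298 and 357 CPM in KO clones 1 and 5, against 456 and 374 CPM in WT A and B, so both KO sums were below both WT sums. Most of each sum was GMNN, while CDC6 and CDT1 each overlapped between the groups. None of the 3 genes passed the test. GMNN encodes geminin, the inhibitor of CDT1, and had 815 and 1137 counts in KO clones 1 and 5, against 1268 and 1697 in WT A and B. In CPM these were 248 and 292 in KO, against 374 and 314 in WT. The groups did not overlap, and the log2 fold change was -0.35 (SE 0.24, 95% interval -0.87 to 0.17, edgeR adjusted p = 0.506). CDC6, the loading ATPase, had 29.6 and 40.1 CPM in KO clones 1 and 5, against 57.0 and 39.8 CPM in WT A and B, with overlapping groups and a log2 fold change of -0.47 (SE 0.31). For CDT1, the loading partner of CDC6, KO averaged 22.4 ± 3.21 CPM and WT 22.8 ± 3.22 CPM (SD, n = 2 each), which is -0.02 on the log2 scale.

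The helicase subunits MCM2 to MCM7 ranged from -0.28 to 0.35 in log2 fold change. MCM7 had 406 and 760 counts in KO clones 1 and 5, against 693 and 991 in WT A and B, or 124 and 195 CPM in KO, against 205 and 183 CPM in WT. KO clone 5 lay between the WT libraries and KO clone 1 below both, and the log2 fold change was -0.28 (SE 0.28; edgeR adjusted p = 0.658). MCM5 lay the other way, with 144 and 108 CPM in KO clones 1 and 5, against 99.2 and 99.4 CPM in WT A and B (0.35, SE 0.27). MCM3 averaged 81.7 ± 2.16 CPM in KO and 82.7 ± 4.96 CPM in WT (SD, n = 2 each). MCM6 had 56.1 and 58.0 CPM in KO clones 1 and 5, against 64.1 and 61.8 CPM in WT A and B, groups that did not overlap (-0.14, SE 0.28). MCM4 and MCM2 had log2 fold changes of -0.08 and 0.14. These subunits form 1 hexamer, and none of them passed the test.

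Among the genes that turn the loaded helicase into an active one, GINS3 had the largest fitted difference, and it came from 1 clone. GINS3, a subunit of the GINS complex, had 29 and 84 counts in KO clones 1 and 5, against 29 and 49 in WT A and B. That is 8.84 and 21.6 CPM in KO, against 8.56 and 9.07 CPM in WT. KO clone 1 lay between the WT libraries while KO clone 5 was above both, and the log2 fold change was 0.80 (SE 0.40; 95% interval -0.06 to 1.65; edgeR adjusted p = 0.343). Without KO clone 5 it was -0.0047, and without KO clone 1 it was 1.29 (edgeR adjusted p = 0.0527). Its partner GINS2 had 383 and 503 CPM in KO clones 1 and 5, against 511 and 435 CPM in WT A and B, overlapping groups with a log2 fold change of -0.09 (SE 0.24). GINS1 had -0.12, and GINS4 had 0.01 from 17 to 28 counts a library. MCM10, which helps to assemble the active helicase, had 40.8 and 26.7 CPM in KO clones 1 and 5, against 48.4 and 41.8 CPM in WT A and B (-0.42, SE 0.31). CDC45 had 17.7 and 26.5 CPM in KO clones 1 and 5, against 29.2 and 26.5 CPM in WT A and B, so that KO clone 5 was level with WT B (-0.33, SE 0.31).

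**Figure D2:**
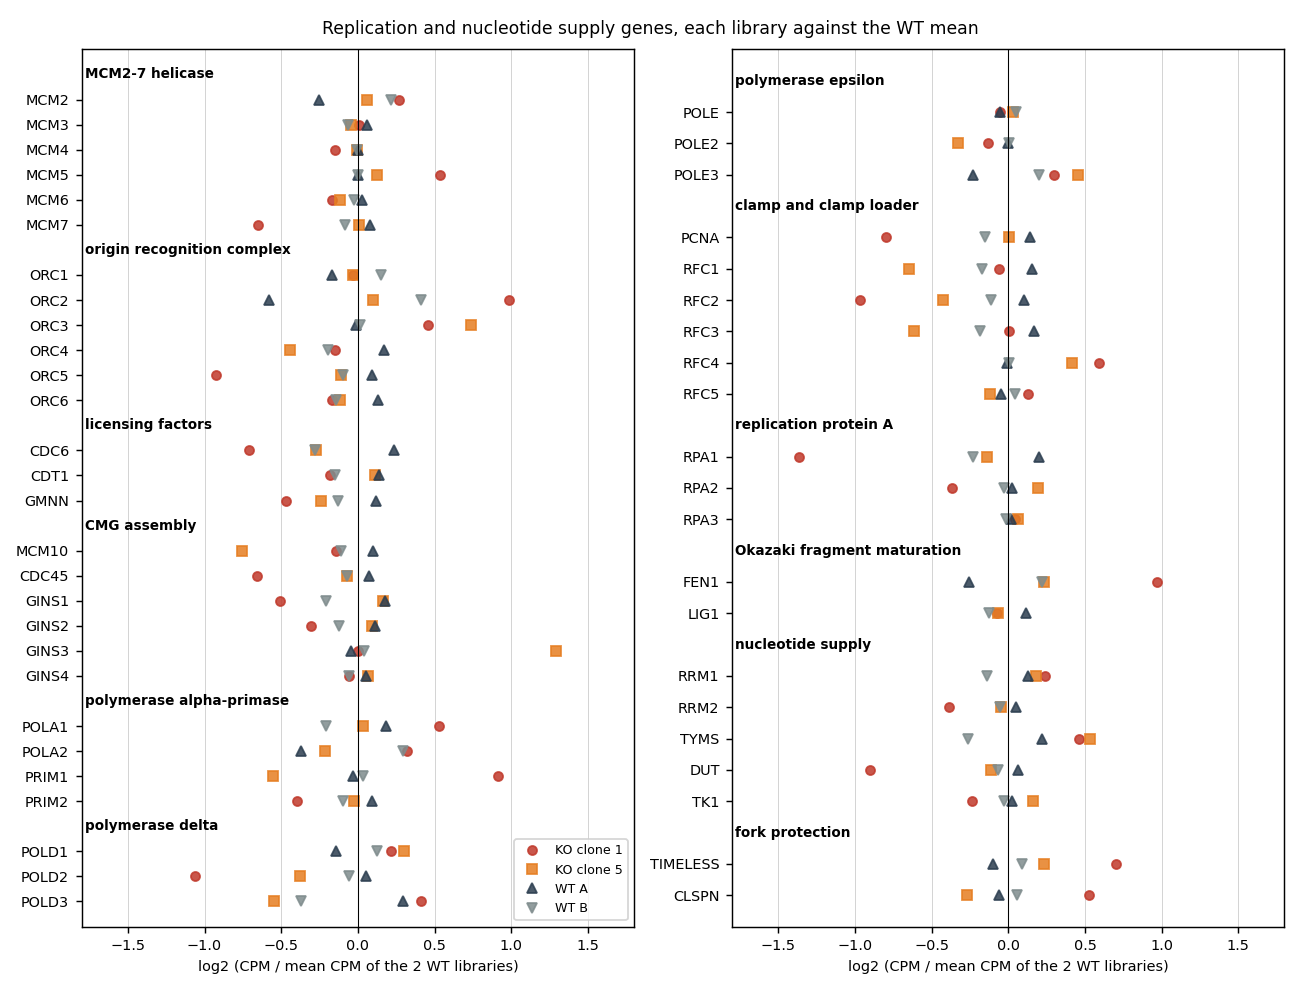
CPM of each library over the mean CPM of the 2 WT libraries, on a log2 scale, for all 49 genes by complex (circles KO clone 1, squares KO clone 5, upward triangles WT A, downward triangles WT B). KO clone 1 stands furthest to the left for RPA1, POLD2, RFC2, ORC5, DUT and PCNA and furthest to the right for ORC2, FEN1 and PRIM1, while KO clone 5 stands furthest out for GINS3.

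Of the polymerase genes, POLD2 had the lowest p of the whole set. It encodes the regulatory B subunit of polymerase delta and had 347 and 663 counts in KO clones 1 and 5, against 777 and 1150 in WT A and B. In CPM these were 106 and 170 in KO, against 229 and 213 in WT. Both KO libraries were below both WT libraries, and the log2 fold change was -0.68 (SE 0.28, 95% interval -1.28 to -0.07, edgeR adjusted p = 0.249). The catalytic subunit POLD1 and the accessory subunit POLD3 had log2 fold changes of 0.25 (SE 0.34) and 0.01 (SE 0.36). POLE, the catalytic subunit of polymerase epsilon, had 26.8 and 28.5 CPM in KO clones 1 and 5, against 26.9 and 28.9 CPM in WT A and B, and its partners POLE2 and POLE3 had log2 fold changes of -0.23 (SE 0.29) and 0.37 (SE 0.30). POLE2 had 32.3 and 28.3 CPM in KO clones 1 and 5, against 35.4 and 35.5 CPM in WT A and B. In polymerase alpha-primase, POLA1, the catalytic subunit, had 60.3 and 42.9 CPM in KO clones 1 and 5, against 47.5 and 36.3 CPM in WT A and B (log2 fold change 0.30, SE 0.30), and POLA2, PRIM1 and PRIM2 had 0.05, 0.32 and -0.19. PRIM1, the primase catalytic subunit, rested on 12 to 28 counts a library, and its interval from -0.70 to 1.35 was the widest of the set.

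The fitted values of the clamp loader subunits had both signs. RFC2 had 161 and 278 counts in KO clones 1 and 5, against 349 and 480 in WT A and B, or 49.1 and 71.4 CPM in KO, against 103 and 88.8 CPM in WT. Its KO libraries were below both WT libraries, and the log2 fold change was -0.67 (SE 0.29, 95% interval -1.30 to -0.04, edgeR adjusted p = 0.273). RFC4 had 989 and 1041 counts in KO clones 1 and 5, against 675 and 1087 in WT A and B, or 301 and 267 CPM in KO, against 199 and 201 CPM in WT. Its KO libraries were above both WT libraries (0.51, SE 0.24, 95% interval -0.01 to 1.03, edgeR adjusted p = 0.321). RFC1, RFC3 and RFC5 had log2 fold changes of -0.32, -0.27 and 0.00. PCNA, the sliding clamp, had 154 and 270 CPM in KO clones 1 and 5, against 296 and 242 CPM in WT A and B, so that KO clone 5 lay between the WT libraries (-0.34, SE 0.29).

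Replication protein A coats single-stranded DNA as a trimer, and its genes gave unlike pictures in the clones. RPA1, the large subunit, had 40 and 111 counts in KO clones 1 and 5, against 122 and 144 in WT A and B, or 12.2 and 28.5 CPM in KO, against 36.0 and 26.7 CPM in WT. KO clone 1 was far below the other libraries, while KO clone 5 lay between the WT libraries, and the log2 fold change was -0.60 (SE 0.37; edgeR adjusted p = 0.448). RPA3, the small subunit, had 450 and 455 CPM in KO clones 1 and 5, against 441 and 431 CPM in WT A and B. Its log2 fold change of 0.05 (SE 0.22, 95% interval -0.43 to 0.53) had the narrowest interval of the set. RPA2 had -0.06 (SE 0.28).

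On the lagging strand, FEN1 removes the flap of each Okazaki fragment and LIG1 seals the nick. FEN1 had 366 and 260 counts in KO clones 1 and 5, against 161 and 358 in WT A and B, or 112 and 66.8 CPM in KO, against 47.5 and 66.3 CPM in WT. KO clone 5 was level with WT B, and the log2 fold change was 0.64 (SE 0.32, 95% interval -0.05 to 1.33, edgeR adjusted p = 0.343). LIG1 averaged 18.7 ± 0.114 CPM in KO and 19.6 ± 2.34 CPM in WT (SD, n = 2 each). Of the fork protection factors, TIMELESS had 31.4 and 22.6 CPM in KO clones 1 and 5, against 18.0 and 20.5 CPM in WT A and B (0.48, SE 0.30, edgeR adjusted p = 0.467). CLSPN encodes claspin, the adaptor between stalled forks and the checkpoint kinase CHK1, and had 308 and 177 CPM in KO clones 1 and 5, against 205 and 223 CPM in WT A and B. Its KO clones lay on opposite sides of the WT libraries, so the log2 fold change of 0.18 (SE 0.29) averages unlike clones, and without KO clone 1 it was -0.27.

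The nucleotide supply genes also held no call. DUT encodes dUTPase, which keeps uracil out of DNA, and had 945 and 1944 counts in KO clones 1 and 5, against 1908 and 2784 in WT A and B. In CPM it had 288 and 499 in KO, against 563 and 515 in WT, and its KO libraries were below both WT libraries, KO clone 5 by little (-0.45, SE 0.27, 95% interval -1.03 to 0.13, edgeR adjusted p = 0.432). The ribonucleotide reductase subunits RRM1 and RRM2 had log2 fold changes of 0.21 (SE 0.29) and -0.20 (SE 0.25), and the thymidine kinase TK1 had -0.02 (SE 0.26). TYMS, thymidylate synthase, was the 1 gene too low to test, with 8 and 10 counts in KO clones 1 and 5, against 7 and 8 in WT A and B. The gene ENOSF1 on the other strand covers 39.9% of the exonic bases of TYMS. The strand rule of the counting is unknown here, and the part of this overlap in the low count was not tested. Other members overlap other genes too. The largest share with 1 gene was 23.6% for MCM2, 21.0% for GINS4, 14.5% for DUT and 10.9% for GINS3, all on the other strand. On the same strand it was 16.8% for POLA2 and 10.9% for PRIM1. Effects of these overlaps on the counts were not tested.

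The KO clones were over 1.5-fold apart for 16 of the 48 genes, 8 higher in clone 1 and 8 higher in clone 5. That share of 33.3% was close to the 32.1% of all genes. The WT libraries were over 1.5-fold apart for 3 of the 48 (6.25%, against 21.6% of all genes). Such gaps also depend on counts, which were higher for these genes than for most, and were not compared at equal counts. The median gap without regard to sign was 0.40 on the log2 scale between the clones and 0.20 between the WT libraries, and for all genes 0.40 and 0.29. Between the clones the gap was 1.47 for PRIM1 and 0.96 for POLD3, both higher in clone 1, and -1.29 for GINS3 and -1.23 for RPA1, both higher in clone 5. Each clone has 1 library, so these gaps have no replicate check.

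**Figure D3:**
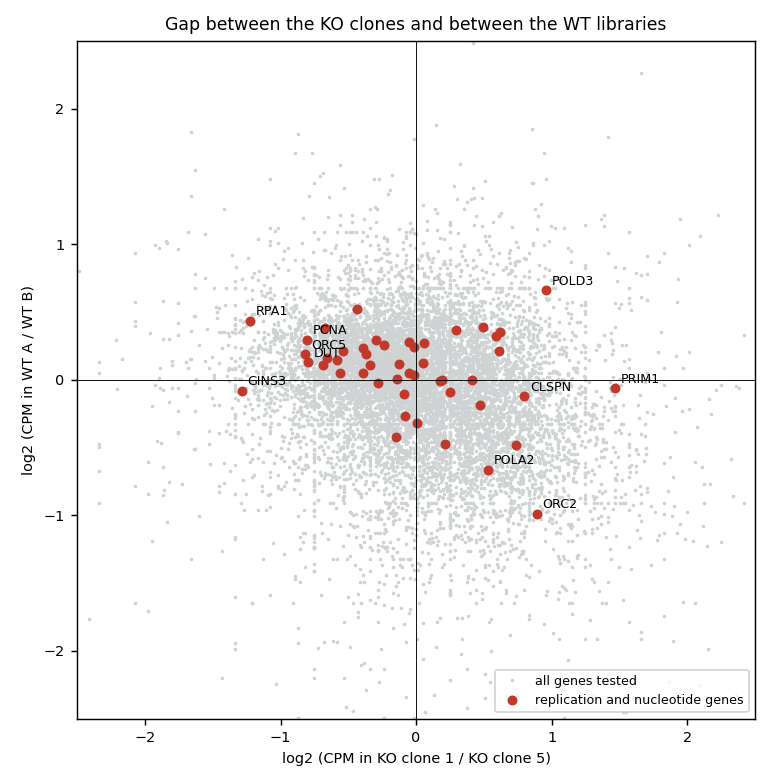
Log2 ratio of CPM between KO clone 1 and KO clone 5 (x axis) and between WT A and WT B (y axis) for the 48 tested genes (red) and all genes tested with counts in every library (grey, axes limited to 2.5 in either direction). The red points spread more along x than along y: 16 are over 1.5-fold apart between the clones and 3 between the WT libraries.

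Set against both WT libraries alone, the clones gave different calls. Without KO clone 5, 1 gene was called higher, FEN1 (log2 fold change 0.96, edgeR adjusted p = 0.0311). In the same fit 5 were called lower, POLD2 (-1.07, edgeR adjusted p = 0.00991), DUT (-0.91, 0.0132), RPA1 (-1.36, 0.0225), RFC2 (-0.97, 0.0356) and PCNA (-0.80, 0.0424). Those 6 of 48 are 12.5%, against 9.2% of all genes called in that fit, 5.99% higher and 3.21% lower. KO clone 5 alone gave 0 calls among 49 tested genes, against 1.71% of all genes (1.22% higher and 0.481% lower), and GINS3 had the lowest edgeR adjusted p, 0.0527. A single KO library is assumed in these fits to vary like the WT pair, so the calls describe that library and not the genotype. The difference between the clones was not tested.

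Transcript length moved with the clone difference over all genes. The median log2 ratio of clone 1 over clone 5 was -0.19 in the 967 genes with the shortest annotated transcripts and 0.23 in the 967 with the longest, while WT A over WT B had 0.00 and -0.11 there. For these all-gene medians 1 was added to each CPM, while the ratios of the 48 genes use CPM alone. Among the 48 genes, those with a longest transcript of up to 2000 bases had a median clone 1 over clone 5 log2 ratio of -0.23 (9 genes). Those over 4000 bases had one of 0.35 (14 genes). Clone 1 was the lower clone for 6 of the 9 genes and for 6 of the 14. The median of WT A over WT B also rose with length in these genes, from 0.05 in the 9 to 0.23 in the 14. KO over WT had a length trend too. Its median log2 fold change was -0.14 in those 9 genes (all genes of that length -0.15) and -0.07 in those 14 (all genes 0.09). In the 25 genes between, it was -0.02, as for all genes. With offsets that removed the length trend, 0 of the 48 genes were called between KO and WT, against 1.63% of all genes. Without KO clone 5 the length offsets left 5 calls (against 11.2% of all genes, 7.59% higher and 3.63% lower), with FEN1 and RFC4 higher and POLD2, DUT and RPA1 lower, so the calls of RFC2 (edgeR adjusted p = 0.102) and PCNA (0.193) ended there. Without KO clone 1 the offsets gave 1 call, GINS3 higher (log2 fold change 1.28, edgeR adjusted p = 0.0193), against 3.36% of all genes (2.2% higher and 1.16% lower).

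**Figure D4:**
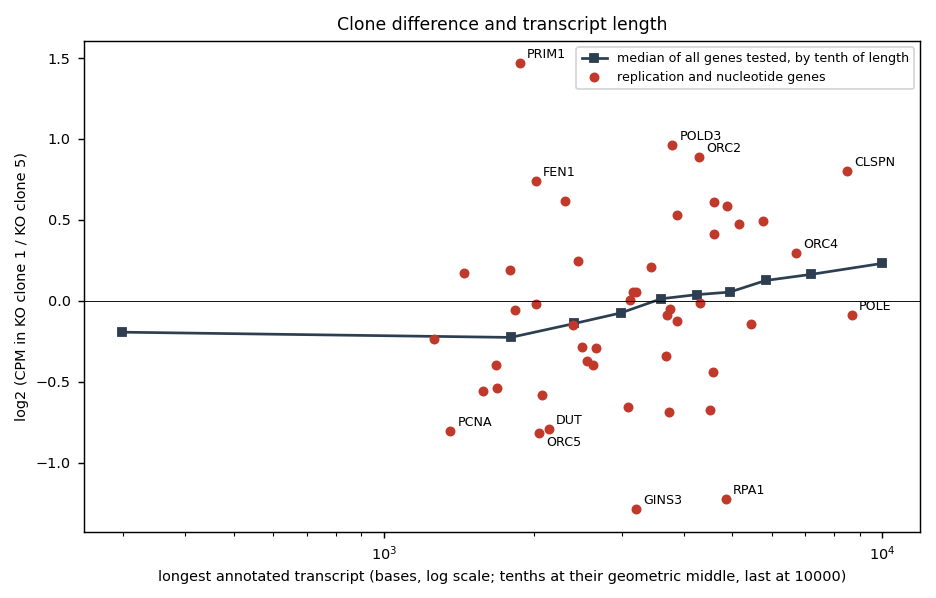
Log2 ratio of CPM between KO clone 1 and KO clone 5 (y axis) against the longest annotated transcript in bases (x axis, log scale) for the 48 tested genes (red), with the median of all genes tested in each of 10 length bins (dark squares). The all-gene median is -0.19 in the bin of shortest and 0.23 in that of longest transcripts, and single genes lie up to 1.47 from 0. The all-gene medians were taken after adding 1 to each CPM, and the red points use CPM alone.

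The 49 genes lie on 21 chromosomes (GENCODE 44, hg38), at most 5 on any of them. Over the tested genes within 5 Mb of each gene, the median log2 fold change lay within 0.25 of 0 for 47 of 48. POLD2, on chromosome 7 from 44114631 to 44124358, had 32 such neighbours with a median of -0.14, and RFC2, on the same chromosome from 74231499 to 74254458, had 39 with -0.05. For ORC3, on chromosome 6 from 87590067 to 87667453, the 27 neighbours had a median of -0.13. The exception was ORC6, on chromosome 16 from 46689643 to 46698394, whose 16 neighbours had a median of 0.51 while ORC6 itself had -0.14. By promoter, the median log2 fold change was -0.08 for the 20 tested genes with an E2F octamer and -0.09 for the 22 without one, given without a test. The 23 pseudogenes named after these genes held 23 counts over the 4 libraries.

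Other genes of replication and the cell cycle were described from lists chosen with earlier results of these data known. Of their 135 tested genes 1 was called, against 2.19% of all genes tested, so 0 calls in a short list says little. BUB1, a spindle checkpoint kinase, had 162 and 186 CPM in KO clones 1 and 5, against 81.8 and 63.3 CPM in WT A and B, which is 1.26 on the log2 scale (SE 0.28; edgeR adjusted p = 0.0302). Its adjusted p was 0.0654 without scaling, 0.114 without WT A and 0.337 without WT B. Of 26 other replication factors 0 were called, and their median was 0.18. The lowest p among them belonged to DONSON, a fork protein, with 1.15 (SE 0.35, edgeR adjusted p = 0.111), TOPBP1, an initiation and checkpoint scaffold, with 1.01 (SE 0.32), and MCM9, a helicase of repair, with 1.31 (SE 0.48). Of 35 other nucleotide synthesis genes 0 were called, with a median of -0.07. CTPS1, CTP synthase, had 170 and 168 CPM in KO clones 1 and 5, against 79.4 and 90.9 CPM in WT A and B. Its log2 fold change was 0.99 (SE 0.26, edgeR adjusted p = 0.0734), and DESeq2 called it (adjusted p = 0.0151). The kinase DCK, of the deoxycytidine salvage pathway, had 1.00 (SE 0.35), and SAMHD1, which breaks down dNTPs, 0.89 (SE 0.33).

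Of the E2F and RB family 16 genes were tested and 0 called, with a median of 0.06. RB1, the retinoblastoma protein that restrains E2F, had 215 and 68.6 CPM in KO clones 1 and 5, against 22.4 and 50.3 CPM in WT A and B (1.94, SE 0.49, edgeR adjusted p = 0.0596), with KO clone 1 far above KO clone 5. E2F1 had 0.66 (SE 0.34) and E2F7 -0.67 (SE 0.36). The 14 genes listed for chromatin and histone supply in S phase held 0 calls (median -0.11), with ASF1A at 1.11 (SE 0.31), DNMT1 at -0.60 (SE 0.24) and CASP8AP2 at 0.62 (SE 0.28). The 13 replication checkpoint genes held 0 calls as well (median 0.17), with HLTF at 0.70 (SE 0.31), WEE1 at 0.66 (SE 0.31) and CDC25A at 0.55 (SE 0.29). Among the 31 genes of G2 and mitosis the median was -0.26, 22 lay below 0, and both KO libraries were below both WT libraries for 14 (45.2%, against 22.8% of all genes). CCNA2, cyclin A2, had -0.90 (SE 0.29, edgeR adjusted p = 0.131) and CENPF, a kinetochore protein, -0.68 (SE 0.26). All 33 listed genes of G2 and mitosis summed to 4220 and 4982 CPM in KO clones 1 and 5, against 5798 and 4771 CPM in WT A and B. These groups overlapped. The replication and nucleotide genes summed to 4425 and 4927 CPM in KO clones 1 and 5, against 5296 and 4840 CPM in WT A and B, which overlapped too.

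**Figure D5:**
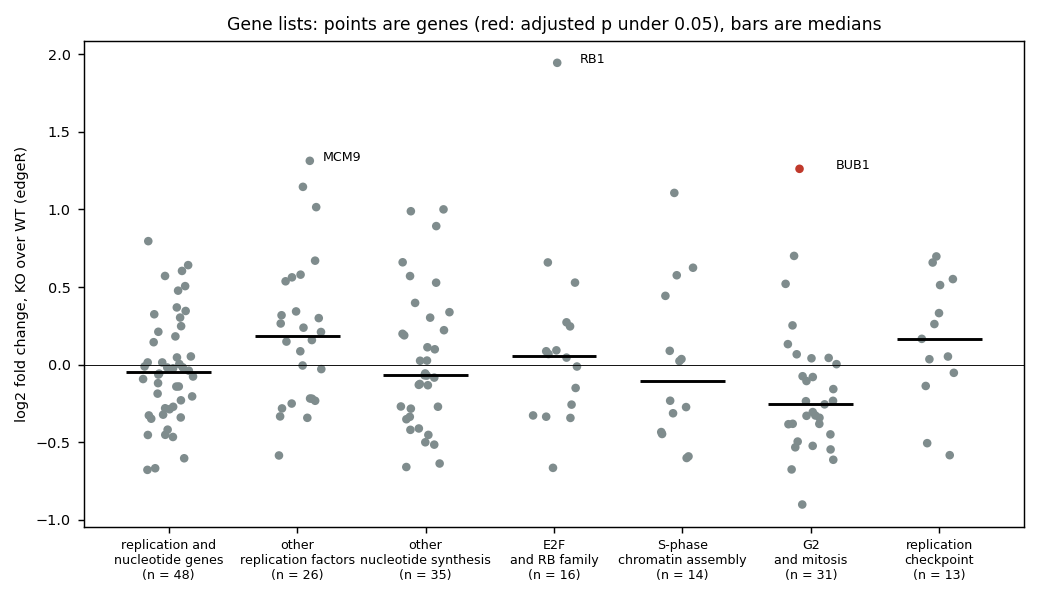
Fitted log2 fold change of KO over WT for each tested gene of the replication and nucleotide set and of 6 other lists (points), with the median of each list (bars). BUB1 is the only point past an adjusted p of 0.05 (red), and the medians run from -0.26 for G2 and mitosis to 0.18 for the other replication factors.

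The authors' deposited table lists 45 of the 49 genes and leaves out GINS4, POLD1, PRIM1 and TYMS. None of these 45 had an adjusted p under 0.05 in the authors' deposited table, against 1.99% of its 6479 genes, and the lowest was 0.313, for POLD2, with a log2 fold change of -0.68 and an error of 0.30. In the authors' deposited table RFC2 had -0.68 and RFC4 0.50.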

How the data were processed

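The deposited table gives whole-number read counts per gene for 4 libraries. Per the submitters' processing notes, the authors used hg38, minimap2, SAMtools, Subread, DESeq and DESeq2 1.22.2, while settings, annotation and strand rule are not given in the sources used. A deposited signal table holds counts divided by 1 size factor per library and served only to check the direction of the fold changes. A table of the authors' own log2 fold changes, p-values and Wald score, also deposited, covers 6479 genes. The sign of that score is opposite to that of the fold change in nearly every gene, so it was not used. KO columns carry clone numbers, WT columns none, and 0 count columns were left unused.

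KO was compared with WT in edgeR 4.0.16 (R 4.3.3) with filterByExpr (minimum count 10, total 15), TMM scaling and a robust two-sided quasi-likelihood F test, adjusted over 10505 genes. The biological coefficient of variation was 0.210. The fit was tested on simulated data, where it called 86.1% of 4-fold but only 20.4% of 2-fold differences, with 4 false calls. Most differences of 2-fold would thus be missed at this threshold. Standard errors were taken as the size of the log2 fold change divided by the root of F, and the 95% interval uses the degrees of freedom of the fit. Longest transcripts and positions came from GENCODE 44. Alternatives were other scalings and filters, DESeq2 1.42.0, limma 3.58.1 (voom), length offsets in 10 bins, pseudogene counts added and each library left out.

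The genes, the lists and the tests were chosen with earlier results of these data known. Values per library are given for the 12 genes with the lowest p, the 3 largest differences in each direction and the most abundant gene of each complex, and of other lists the called genes and the 3 with the lowest p are named. Values by library or means of MCM3, MCM5, MCM6, CDT1, POLE, PCNA, LIG1, MCM10, CDC45 and TYMS were added after their values were seen, as were the fits that leave out a KO clone with length offsets. At library totals of 3121759 to 5303199 counts, genes near the minimum count are imprecise.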

Additional observations from a re-analysis of the deposited data

How the results depend on the processing

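Under the alternatives that kept both clones, 0 replication and nucleotide genes were called, in either direction. Leaving out 1 library in turn gave 0 to 1 higher and 0 to 5 lower calls, all of them without KO clone 5. In settings added after seeing the data, length offsets gave 2 higher and 3 lower calls without KO clone 5 and 1 higher without KO clone 1. The median log2 fold change of the set was -0.05. It was -0.087 with upper-quartile scaling, -0.147 to -0.0165 with 1 library left out, and -0.0178 with length offsets without KO clone 5.

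Calls over all genes, 166 higher and 64 lower, were 19 and 11 with no scaling factor, 385 and 183 with no count filter and 71 and 12 at a mean of at least 50 counts. They were 294 higher at an adjusted p under 0.10, and 24 lower with DESeq2 and 41 with limma-voom. With 1 library left out they were 91 to 674 higher and 42 to 361 lower. With length offsets they were 854 and 408 without KO clone 5, and 251 and 133 without KO clone 1.

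The fitted sign differed from the reported one with 1 library left out for 21 of the 48 genes, none of them called between KO and WT. The range was -0.55 to 0.90 for PRIM1, -0.53 to 0.42 for POLD3, -0.50 to 0.17 for GINS1, -0.37 to 0.19 for RPA2, -0.24 to 0.41 for POLA2 and -0.24 to 0.16 for TK1. Among the genes given by library under the naming rule, it did so for GINS3 (-0.0047 to 1.29), GINS2 (-0.31 to 0.0903), CLSPN (-0.27 to 0.52), MCM7 (-0.65 to 0.00946) and ORC6 (-0.30 to 0.00758). ORC6 had 0.0170 with length offsets. With length offsets and without KO clone 1, GINS2 had 0.0948, CLSPN -0.27, MCM7 0.0027 and POLA1 -0.0205, and without KO clone 5 ORC6 had 0.0811 and POLE2 0.11. The cause was not tested. No paired analysis was made because no label pairs a KO library with a WT library.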
